A study of Mus musculus with 18 samples.

Results

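The subject is a set of 10 mouse genes that carry fatty acids into the fat cell and build them into triglycerides: Cd36, Slc27a1, Lpl, Fabp4, Fabp5, Fabp3, Acsl1, Lpin1, Dgat1 and Dgat2. They were taken by gene symbol, as a set chosen with earlier results of these data known, and each matched 1 row of a count table of 54347 genes. The table holds polyadenylated RNA from wt1-SAM cells, an immortalised line of mouse brown preadipocytes that stably carries the SAM system for CRISPR activation. All 18 libraries came from cells differentiated with a cocktail that included rosiglitazone, a PPARG agonist, reverse transfected on day 4 with 1.4 µl of a 10 µM locked nucleic acid antisense oligonucleotide (LNA) and harvested on day 7. The LNA was the non-targeting control ctrlA, or LNA1 or LNA2, which were both directed against the long noncoding RNA Gm15551. Of each LNA, 3 libraries came from unstimulated cells and 3 from cells given 1 µM isoproterenol, a non-selective β-adrenergic agonist, for 24 h. The 6 groups carried the same replicate numbers 2, 3 and 4. No label states what the number stands for or whether the wells were separate cultures, so the p-values measure the spread between these libraries, and a single cell line stands for brown fat.

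Fat cells take up fatty acids that lipoprotein lipase (Lpl) frees from circulating triglyceride, and the scavenger receptor CD36 and the transport protein FATP1 (Slc27a1) help them across the membrane. Inside the cell, fatty acid binding proteins (Fabp3, Fabp4, Fabp5) hold them in solution, and acyl-CoA synthetases such as ACSL1 activate them. Lipin 1 (Lpin1) then turns phosphatidate into diacylglycerol, and DGAT1 and DGAT2 add the last acyl chain. Brown fat uses these steps both to store fat and to feed heat production under β-adrenergic drive, and several of these genes are known targets of PPARG.

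The oligonucleotides are shown because they define the groups, written 5′ to 3′ in lower case throughout since no part of them is singled out. ctrlA was taken to be the oligonucleotide listed as Negative control A.
ctrlA: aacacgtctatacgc
LNA1: gatgactgagattaga
LNA2: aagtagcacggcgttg
Both LNA1 and LNA2 were complementary over all 16 bases to the 1 Gm15551 transcript of GENCODE M21. The longest complementary run in any annotated transcript of the 10 genes was 9 bases, between LNA1 and Dgat2, and the shortest of these longest runs was 5 bases.

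Library totals ranged from 9167560 to 19723021 counts, and the 10 genes together took 1.73 to 2.89% of them. Gm15551 itself was near the limit of detection, with 42 counts in all in the 6 ctrlA libraries (2 to 14 in each), 24 with LNA1 (1 to 12) and 27 with LNA2 (1 to 13), so that the ranges overlapped and its knockdown could not be gauged at this depth. Replicate 2 stood apart from replicates 3 and 4. A ribosomal RNA gene took 2.88 to 14.3% of the counts in its 6 libraries and 0.285 to 1.04% in the other 12, and mitochondrial genes took 7.86 to 9.79% against 2.56 to 4.97%. Between replicate 2 and the other replicates the ranges of 4 of the 9 members that could be tested did not overlap, beside 34.5% of all 14949 genes tested. Fabp4, Fabp5 and Cd36 were higher in replicate 2, with median ratios to the mean of replicates 3 and 4 of the same group of 1.69, 1.59 and 1.46. Slc27a1, Dgat2, Lpin1, Acsl1 and Dgat1 were lower there, with median ratios of 0.397, 0.593, 0.597, 0.680 and 0.716. Lpl was lower by less, with a median ratio of 0.907 (0.806 to 0.947). The stimulated LNA2 library of replicate 3 also stood apart, with the lowest mitochondrial share of all libraries (2.56%). Its counts differed from those of replicate 4 of its group by a chi-square per degree of freedom of 41.3. In the other groups this value between replicates 3 and 4 was 4.67 to 11.7. The part of RNA quality in these differences was not tested. For this reason each comparison is given without and with the replicate number as a term of the model (the block), and the main ones also without replicate 2.

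All 8 adipocyte markers listed (Adipoq, Pparg, Cebpa, Plin1, Cidec, Lipe, Pnpla2 and Retn) were detected, with a summed level of 4761 to 7037 CPM (counts per TMM-scaled library total, set to the same total for every library) in unstimulated libraries and 3512 to 6075 CPM with isoproterenol. The 7 brown fat markers, Ucp1 among them, summed to 255 to 427 CPM and 355 to 548 CPM. Of 8 preadipocyte markers 6 were detected, at 223 to 503 CPM and 305 to 524 CPM, and Dpp4 and Thy1 had no more than 3 counts in any library. The macrophage list summed to 10.5 to 31.0 and 14.9 to 49.0 CPM with Ptprc and Adgre1 at or under 3 counts, the endothelial list to 2.46 to 4.16 and 2.18 to 4.26 CPM with Kdr, Tek and Emcn at or under 3 counts, and the muscle list to 6.03 to 10.6 and 10.1 to 17.7 CPM with Myod1, Myog, Myf5 and Ckm at or under 3 counts. The 12 interferon-stimulated genes listed summed to 188 to 251 and 152 to 214 CPM. They were listed for a response to transfected nucleic acid, but all libraries were transfected, so this split by stimulation cannot show one. The part of these shifts in the results was not tested. In bulk RNA, fewer differentiated cells and less RNA per cell cannot be told apart.

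Levels between genes were compared only after division by gene length. Per kilobase of merged exons, Fabp4 stood first in all 18 libraries with a mean of 2632 ± 894 CPM per kb (SD, n = 18). Cd36 (450 ± 113), Lpl (391 ± 42.4), Fabp5 (345 ± 103) and Acsl1 (259 ± 67.4 CPM per kb) followed, and neighbours among these 4 changed places between libraries: Cd36 was above Lpl in 11 of 18, Lpl above Fabp5 in 12 and Fabp5 above Acsl1 in 11. From Acsl1 downwards the order held in all 18 libraries, with Dgat1 at 167 ± 27.2, Dgat2 at 90.2 ± 22.1, Lpin1 at 38.5 ± 9.75 and Slc27a1 at 13.9 ± 6.77 CPM per kb. Fabp3, the heart and muscle form, was at the bottom with 0.340 ± 0.162 CPM per kb. Its 1 to 7 counts in each library lay around the floor of 3 counts and did not pass the filter, so it was not tested. The order depended on the length taken: per kilobase of the principal transcript, Fabp4 stood at 13185 CPM per kb, Fabp5 moved up to the second place with 1247 CPM per kb and Cd36 down to the fifth with 475 CPM per kb.

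**Figure D1:**
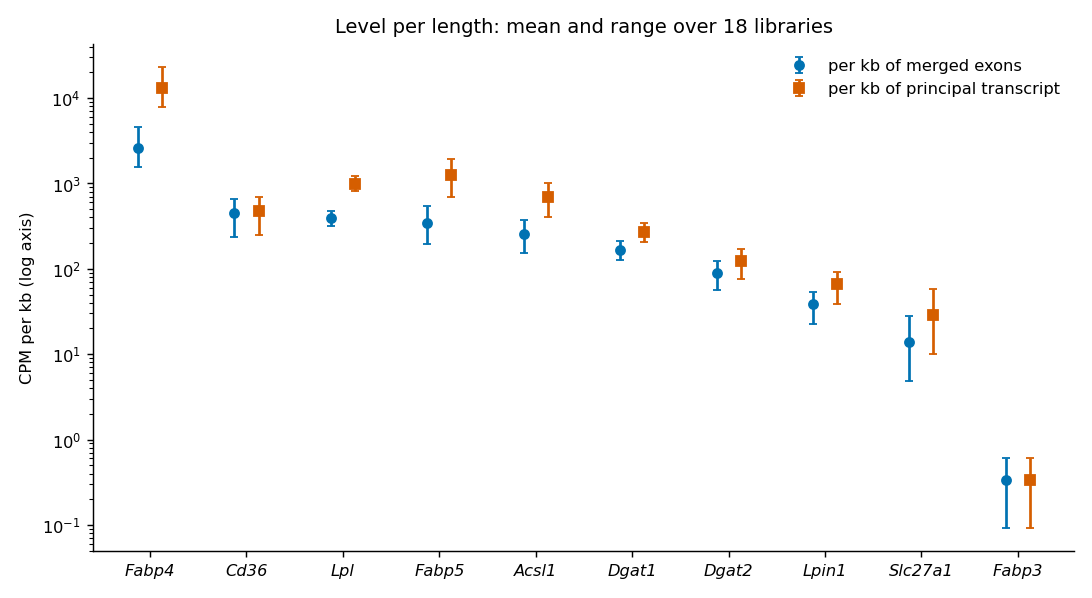
Level of each gene per kilobase on a log axis, as the mean (point) and range (bar) over 18 libraries, with the length taken from merged exons (circles) or from the principal transcript (squares). Fabp4 is highest and Fabp3 lowest on both scales, while Fabp5 moves from 345 to 1247 CPM per kb between them.

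In GRCm38 coordinates of GENCODE M21, Fabp4 lies at chr3:10204088-10208576 on the minus strand and Fabp5 nearby at chr3:10012548-10016607 on the plus strand. Lpl (chr8:68880491-68907448), Slc27a1 (chr8:71568882-71587302) and Acsl1 (chr8:46471037-46536051) share chromosome 8, all on the plus strand. Cd36 is at chr5:17781690-17888801, Lpin1 at chr12:16535669-16610966, Dgat1 at chr15:76502015-76511953 and Dgat2 at chr7:99153658-99182719, all on the minus strand, and Fabp3 is at chr4:130308595-130315463 on the plus strand. Exons of Acsl1 overlap those of Gm45244 on the opposite strand, and those of Fabp3 overlap Zcchc17 and Gm10570. Whether reads were assigned by strand was not stated, so reads of such overlaps cannot be told apart.

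RefSeq start-site windows (GRCm38.p6, 250 bases before to 50 after a start) were held for 5 of the 10 genes, in 8 windows: Cd36, Acsl1, Slc27a1, Lpin1 and Fabp3. They were searched on both strands for AGGTCA, the site read by PPARG and other nuclear receptors, for its direct repeat with 1 base between the copies, and for the cyclic AMP response element TGACGTCA and its shorter form TGACG, which is contained in the longer one. AGGTCA occurred in 2 of the 8 windows, those of Cd36 and Lpin1, and in 16.3% of all 32851 windows. The direct repeat occurred in 0 of 8 (0.0396% of all windows), TGACGTCA in 0 of 8 (1.79%) and TGACG in 1 of 8, that of Fabp3 (20.8%). The 250 bases upstream of both starts with an AGGTCA match are shown, with the match in capitals. Acsl1 and Slc27a1, whose windows had no match, also fell with isoproterenol, and a link between match and response was not tested. That of Cd36 reads as the reverse complement and begins at position -228 from its start, and that of Lpin1 at -74. The Cd36 start lies inside the annotated gene, whose 5′ end is at 17888801, and no other start of Cd36 was held. Neither stretch overlaps an annotated exon of the 10 genes.
Cd36, chr5:17835897-17836146, minus strand, 43.2% GC: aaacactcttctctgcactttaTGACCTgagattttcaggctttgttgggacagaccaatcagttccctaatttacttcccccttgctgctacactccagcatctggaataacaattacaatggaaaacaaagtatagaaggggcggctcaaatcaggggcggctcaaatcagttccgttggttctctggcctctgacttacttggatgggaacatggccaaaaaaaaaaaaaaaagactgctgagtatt
Lpin1, chr12:16610967-16611216, minus strand, 54.8% GC: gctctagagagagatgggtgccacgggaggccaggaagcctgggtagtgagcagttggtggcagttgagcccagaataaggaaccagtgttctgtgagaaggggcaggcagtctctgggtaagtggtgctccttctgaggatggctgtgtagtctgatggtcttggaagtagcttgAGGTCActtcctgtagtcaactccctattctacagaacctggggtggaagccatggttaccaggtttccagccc
A match is a description of these letters, and a window without one says nothing of the factor.

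To see what β-adrenergic stimulation does to these genes, the 9 isoproterenol libraries were compared with the 9 unstimulated ones, averaged over the LNAs. With the replicate number in the model, 6 of the 9 tested genes, Slc27a1, Fabp5, Fabp4, Acsl1, Cd36 and Lpin1, fell by 16.6 to 30.1% (edgeR quasi-likelihood test, adjusted over all genes). This stands beside 26.4% of all genes called in that fit, and 12.2% called lower. Lpl, Dgat1 and Dgat2 were not called, with differences of -1.17 to 1.02%. Each of the 6 genes was lower in 9 of 9 pairs of libraries of the same LNA and replicate number. Without the block the same fold changes did not pass: 0 of 9 were called, beside 4.58% of all genes. At an unadjusted p below 0.05 there were 3 (Acsl1, Cd36 and Fabp5), beside 2242 of 14949 genes. DESeq2 without the block called 0 as well, beside 1064 of all genes. When the 6 libraries of replicate 2 were left out, the model without the block called 6 of 9, beside 10.9% of all genes, and they were the same 6 genes. The median log2 fold change of the 9 genes was -0.385 in both fits, beside -0.0021 without and -0.004 with the block over all genes.

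Markers moved in the same comparison. With the block, 6 of the 8 adipocyte markers fell (Adipoq, Cidec, Lipe, Plin1, Pnpla2 and Retn; list median -0.268). Of 6 tested brown fat markers 4 rose (Cidea, Elovl3, Ppargc1a and Ucp1), of 5 tested preadipocyte markers 3 (Col1a1, Col3a1 and Ly6a), of 3 tested macrophage markers 2 (Cd14 and Cd68) and of 2 tested muscle markers both (Acta1 and Des), while 0 of 2 endothelial ones were called. Without the block Adipoq, Cidec, Cidea, Ppargc1a, Ucp1, Ly6a, Cd14, Cd68 and Des were called in the same directions. Their part in the changes of the 10 genes was not tested.

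**Figure D2:**
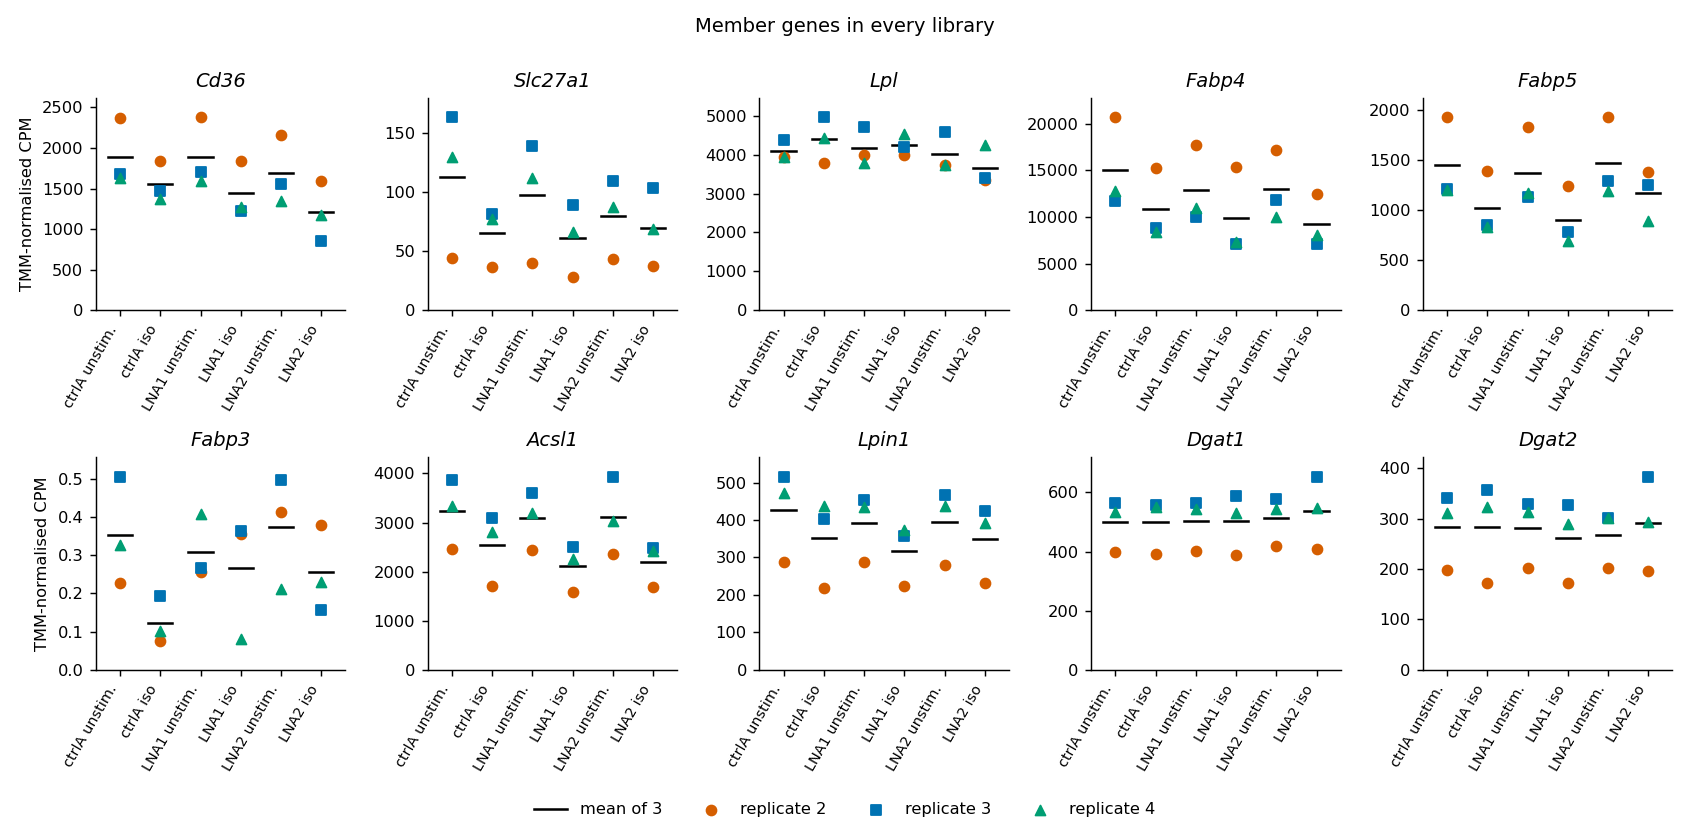
TMM-normalised CPM of each gene in each of the 18 libraries by LNA and stimulation (iso, 1 µM isoproterenol), with replicates 2, 3 and 4 as circles, squares and triangles and the mean of 3 as a line. In Cd36, Slc27a1, Fabp4, Fabp5, Acsl1 and Lpin1 each isoproterenol point lies below the unstimulated point of the same LNA and replicate, and the replicate 2 points of Slc27a1, Dgat1, Dgat2 and Lpin1 lie apart from the others.

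Among the uptake genes, Cd36, the main fatty acid receptor of the fat cell, fell. In ctrlA cells it was at 2366.5, 1680 and 1632 CPM in replicates 2, 3 and 4 unstimulated and at 1836, 1476 and 1366 CPM with isoproterenol. In LNA1 cells the values were 2383, 1703 and 1594 CPM and then 1843, 1222 and 1269 CPM, and in LNA2 cells 2166, 1556 and 1350 CPM and then 1600, 852 and 1170 CPM. Replicate 2 was the highest of every group, and the 9 unstimulated values (1350 to 2383 CPM) overlapped the 9 stimulated ones (852 to 1843 CPM), although each matched pair was lower. The log2 fold change was -0.38 ± 0.06 (SE) with the block (adjusted p = 8.9e-05) and -0.39 ± 0.16 without it (adjusted p = 0.224). The stimulated LNA2 library of replicate 3 was the lowest of the 18, and without it the blocked value was -0.33 (adjusted p = 9.0e-07).

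Slc27a1, which codes for the transport protein FATP1, had the largest averaged drop of the 9 genes tested for isoproterenol and the widest spread between replicates. Unstimulated ctrlA cells held 44.6, 164 and 130 CPM in replicates 2, 3 and 4, and stimulated ones 36.6, 81.5 and 77.4 CPM. LNA1 cells went from 40.5, 139 and 112 CPM to 28.4, 89.3 and 66.4 CPM, whereas LNA2 cells held 43.2, 109 and 88.0 CPM and then 37.2, 104 and 69.3 CPM. The 6 libraries of replicate 2 lay below the other 12, the arms overlapped, and the smallest of the 9 matched drops was that of LNA2 cells in replicate 3. The averaged log2 fold change was -0.52 ± 0.07 with the block (adjusted p = 3.73e-05) and -0.55 ± 0.33 without it (adjusted p = 0.531). Without replicate 2 and with no block it was -0.60 ± 0.12 (adjusted p = 0.00905).

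Lpl, the secreted lipase that supplies the fatty acids, did not follow them. Its level ran from 3728 through a median of 3950 to 4717 CPM in unstimulated libraries and from 3358 through 4189 to 4969 CPM in stimulated ones. The arms overlapped throughout, and of the 9 matched pairs 4 were lower and 5 higher. The blocked log2 fold change was 0.00 with a 95% interval from -0.13 to 0.13 (adjusted p = 0.992), so that a drop as large as that of Cd36 lay outside the interval.

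Both abundant binding proteins fell. Fabp4, the adipocyte form, stood at 20719, 11743 and 12732 CPM in replicates 2, 3 and 4 of unstimulated ctrlA cells and at 15300, 8833 and 8400 CPM after isoproterenol. In LNA1 cells it went from 17680, 10011 and 10943 CPM to 15307, 7081 and 7358 CPM, and in LNA2 cells from 17129, 11826 and 9964 CPM to 12415, 7104 and 8101 CPM. Within replicate 2 and within replicates 3 and 4 the stimulated values lay below all unstimulated ones, while across all replicates the arms overlapped. Fabp4 fell by 27.8% with the block, a log2 fold change of -0.47 ± 0.05 (adjusted p = 6.46e-06) and -0.45 ± 0.22 without it (adjusted p = 0.357).

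Fabp5, a form shared with skin and macrophages, also fell. Its ctrlA values were 1925, 1205 and 1202 CPM unstimulated and 1388, 847 and 833 CPM stimulated. LNA1 cells gave 1823.5, 1128.5 and 1168 CPM and then 1236, 776 and 691 CPM, and LNA2 cells 1927, 1288 and 1193 CPM and then 1377, 1249 and 889 CPM. The stimulated LNA2 library of replicate 3 was the exception, with 1249 CPM close to its unstimulated partner. The blocked log2 fold change was -0.48 ± 0.06 (adjusted p = 8.07e-06), and -0.53 without that library (adjusted p = 8.55e-10). Without the block it was -0.48 ± 0.18 (adjusted p = 0.178).

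Fabp3 had 3 to 7 counts in each unstimulated library and 1 to 5 in each stimulated one. The ranges overlapped and lay at the floor, so no fold change is given.

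Acsl1, which activates long-chain fatty acids and is the main acyl-CoA synthetase of fat cells, fell in every LNA. It went from 2469, 3870 and 3343 CPM in replicates 2, 3 and 4 to 1712, 3098 and 2799 CPM in ctrlA cells. In LNA1 cells it went from 2445, 3604 and 3200 CPM to 1590, 2511 and 2256 CPM, and in LNA2 cells from 2355, 3936 and 3026 CPM to 1679, 2490 and 2418 CPM. Replicate 2 was the lowest of every group, the reverse of Cd36, Fabp4 and Fabp5, and yet the drop was of like size there. The log2 fold change was -0.47 ± 0.04 with the block (adjusted p = 4.73e-07), the smallest p of the set, and -0.46 ± 0.16 without it (adjusted p = 0.140).

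In triglyceride synthesis the response was confined, among the tested members, to Lpin1, which codes for the phosphatidate phosphatase lipin 1. It ran from 280 through a median of 437 to 516 CPM unstimulated and from 218 through 373 to 437 CPM stimulated. The ranges overlapped, but all 9 matched pairs were lower, by 0.12 to 0.40 on the log2 scale. It fell by 16.6% with the block (log2 fold change -0.26 ± 0.04, adjusted p = 1.96e-04), the smallest change of those called, and the value was -0.25 ± 0.19 without the block (adjusted p = 0.670).

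Dgat1 and Dgat2, unrelated enzymes that both carry out the last step, were not called. Dgat1 ran from 398 through 543 to 579 CPM and from 389 through 547 to 654 CPM, and Dgat2 from 197 through 300.4 to 340 CPM and from 172 through 293 to 383 CPM. Within each arm replicate 2 was the lower end, and stimulated and unstimulated libraries overlapped almost fully. Their blocked 95% intervals, -0.06 to 0.09 for Dgat1 and -0.12 to 0.09 for Dgat2 on the log2 scale, left out the change of each of the 6 genes that fell.

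**Figure D3:**
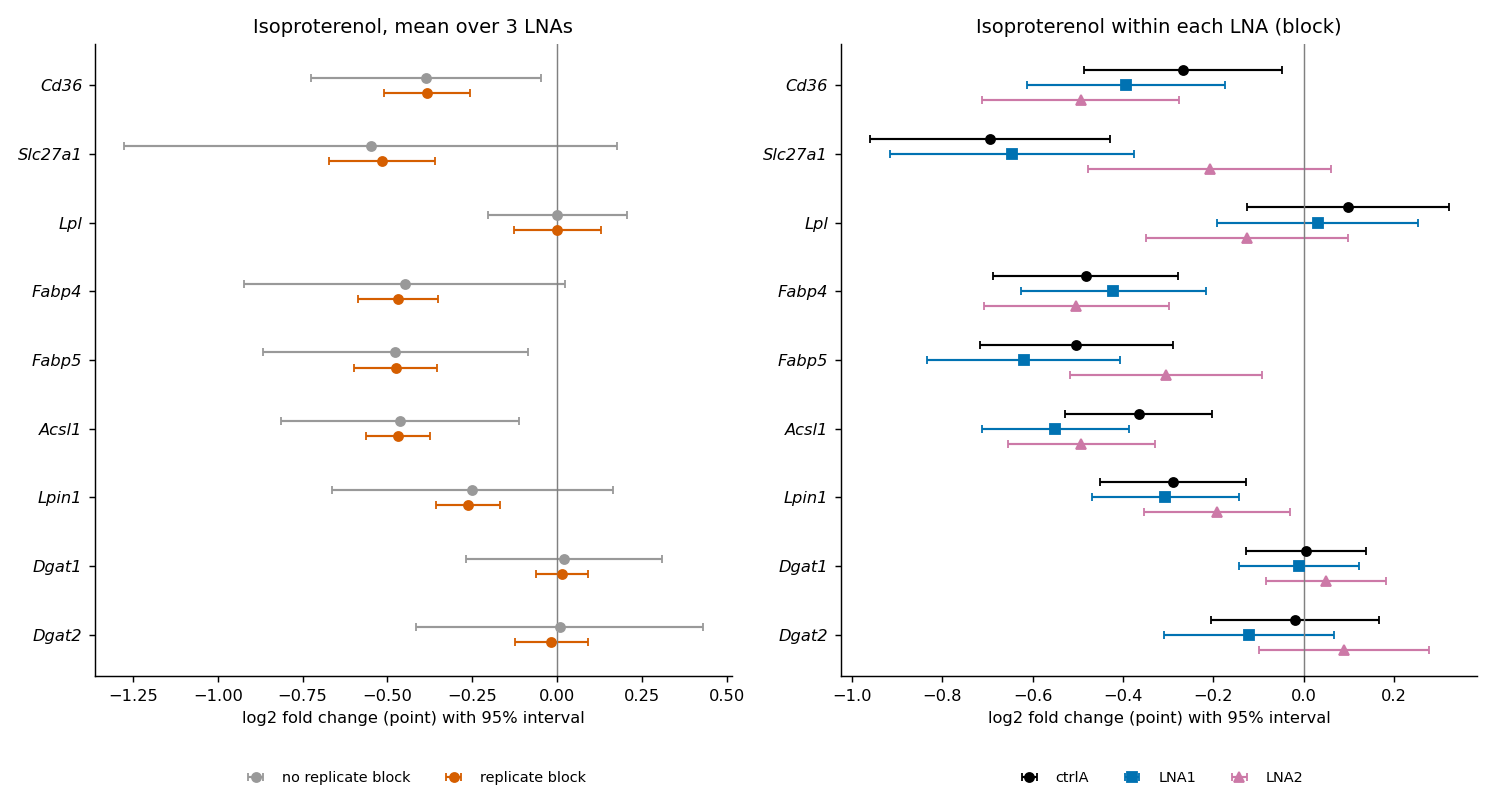
Log2 fold change with isoproterenol of the 9 tested genes (points) with 95% intervals (bars). The left panel gives the mean over the LNAs without (grey) and with (orange) the replicate number in the model, and the right panel the blocked values within ctrlA, LNA1 and LNA2 cells. In the left panel the points of the 6 genes that fell lie between -0.26 and -0.52 with the block, and the intervals of Lpl, Dgat1 and Dgat2 include 0.

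Within each LNA the comparison rests on 3 libraries against 3. With the block, 5 genes fell in ctrlA cells (Slc27a1, Fabp5, Fabp4, Acsl1 and Lpin1, by 0.69, 0.50, 0.48, 0.37 and 0.29 on the log2 scale), beside 7.88% of all genes called and 3.61% called lower. All 6 fell in LNA1 cells, beside 9.84% and 4.37%. In LNA2 cells 3 fell (Fabp4, Cd36 and Acsl1), beside 9.55% and 4.14%. Cd36 in ctrlA cells (-0.27, adjusted p = 0.125) and Fabp5 (-0.31, adjusted p = 0.0556), Lpin1 (-0.19, adjusted p = 0.112) and Slc27a1 (-0.21, adjusted p = 0.302) in LNA2 cells did not pass. DESeq2 with the block called 5, 6 and 4 in ctrlA, LNA1 and LNA2 cells, beside 1299, 1590 and 1659 of all genes. The call in LNA2 cells that edgeR had not made was Fabp5 (adjusted p = 0.0234). Without the stimulated LNA2 library of replicate 3, Fabp5 passed in LNA2 cells (-0.48, adjusted p = 3.96e-05) and Cd36 in ctrlA cells (-0.27, adjusted p = 0.00328). Other calls were lost when 1 library was left out: Lpin1 in ctrlA cells without any of 4 (adjusted p up to 0.119), and in LNA1 cells Cd36 without any of 4 (up to 0.0822), Lpin1 without either of 2 (up to 0.0916) and Fabp4 without 1 (0.0540). All of these were libraries of the LNA compared. Without replicate 4 the counts with the block were 0 in ctrlA, 2 in LNA1 and 3 in LNA2 cells, beside 2.92, 4.51 and 6.2% of all genes. Without replicate 2 they were 2 (Fabp4 and Slc27a1), 4 (Fabp4, Fabp5, Slc27a1 and Acsl1) and 2 (Fabp4 and Acsl1), beside 2.36, 3.63 and 2.37%, and Cd36 did not pass in LNA2 cells (adjusted p = 0.0963). Without replicate 3 the Lpin1 calls in ctrlA (adjusted p = 0.127) and LNA1 cells (adjusted p = 0.0671) were lost, while Cd36 passed in ctrlA cells (adjusted p = 0.0228) and Fabp5 in LNA2 cells (adjusted p = 0.00172). Without the block 0 of 9 were called in ctrlA, LNA1 or LNA2 cells, beside 0.488, 0.702 and 0.395% of all genes, 0 had an unadjusted p below 0.05 and DESeq2 called 0.

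That a gene passed in one LNA and not in another does not make the responses different, so the differences themselves were tested. For LNA1 and for LNA2 against ctrlA, 0 of 9 genes were called in either fit by edgeR, beside 0% of all genes, and 0 by DESeq2. At an unadjusted p below 0.05 there was 1, Slc27a1 with LNA2 in the fit with the block. Its response was 0.49 ± 0.17 weaker on the log2 scale in LNA2 than in ctrlA cells (95% interval 0.11 to 0.86, adjusted p = 0.810). The other intervals were too wide to tell responses of like size apart: that of Fabp5 for LNA2 ran from -0.10 to 0.50 and that of Cd36 from -0.54 to 0.08.

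To see what the LNAs against Gm15551 do to the same genes, LNA1 and LNA2 were each compared with ctrlA over both stimulations, 6 libraries against 6. Without the block 0 of 9 were called with LNA1, beside 0.475% of all genes, and 0 with LNA2, beside 1.59%. None had an unadjusted p below 0.05, and DESeq2 called 0 with each. With the block 0 of 9 were called with LNA1, beside 7.8% of all genes. Fabp4, Acsl1 and Lpin1 had an unadjusted p below 0.05 in that fit. Their values were -0.19 ± 0.06, -0.15 ± 0.05 and -0.11 ± 0.05, with adjusted p of 0.0797, 0.0875 and 0.206. DESeq2 with the block called 2 with LNA1, Fabp4 (adjusted p = 0.0471) and Acsl1 (adjusted p = 0.0232), beside 1293 of all genes. With LNA2 the block gave 2 of 9, both lower, beside 20.6% of all genes called and 11.2% called lower. Markers differed with LNA2 as well in that fit: all 3 tested macrophage markers rose (Cd14, Cd68 and Csf1r; median 0.877), Elovl3 and Ppargc1a of the 6 tested brown fat markers fell, and 3 of 8 adipocyte markers (Cidec, Pparg and Retn, 1 higher and 2 lower) and 3 of 5 tested preadipocyte markers (Col3a1, Ly6a and Pdgfra, 2 higher and 1 lower) were called. With LNA1, Plin1 and Elovl3 fell and Pdgfra and Cd68 rose. Without the block Pdgfra alone was called among the marker lists, higher with LNA1 and with LNA2. Of the interferon-stimulated genes 11 were tested, and 0 were called with LNA1 or LNA2 in that fit. Their median log2 fold change was 0.167 with LNA1 and 0.317 with LNA2, beside -0.0203 and -0.0182 over all genes. The part of these markers in the members' values was not tested.

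Cd36 was the member that fell most with LNA2, by 17.7% (log2 fold change -0.28 ± 0.07, adjusted p = 0.00913 with the block and 0.775 without it). It was lower than ctrlA in 6 of 6 matched pairs, by 0.11 to 0.79 on the log2 scale, with the 0.79 from the stimulated library of replicate 3. Without that library the value was -0.21 (adjusted p = 0.00206). The call was lost without replicate 2 (-0.31, adjusted p = 0.0710) and without replicate 4 (adjusted p = 0.0721). Fabp4 fell by 13.6% with LNA2 (-0.21 ± 0.06, adjusted p = 0.0303 with the block and 0.932 without it) and was lower in 5 of 6 pairs. That call was lost when any of 8 single libraries was left out, with an adjusted p of up to 0.116, and without replicate 2 (-0.15, adjusted p = 0.223) or replicate 4 (adjusted p = 0.149). Acsl1 (-0.12), Slc27a1 (-0.17), Lpl (-0.14) and Lpin1 (-0.05) did not pass with the block, nor did Fabp5 (0.13), Dgat1 (0.07) and Dgat2 (-0.01). Leaving out 1 library moved Fabp5 between 0.04 and 0.18, Lpl between -0.21 and -0.09 and Slc27a1 between -0.24 and -0.10. Lpl passed without the stimulated LNA2 library of replicate 4 (adjusted p = 0.0228). Acsl1 passed without the stimulated ctrlA library of replicate 2 (adjusted p = 0.0409). DESeq2 with the block called 3 with LNA2, Cd36, Fabp4 and also Acsl1 (adjusted p = 0.0377), beside 3134 of all genes.

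LNA1 and LNA2 target the same RNA, so they were also compared with each other. Without the block 0 of 9 were called, beside 0.97% of all genes, none had an unadjusted p below 0.05 and DESeq2 called 0. With it 2 were called, beside 15.4% of all genes: Cd36 was lower with LNA2 in 6 of 6 pairs (-0.22 ± 0.07, adjusted p = 0.0447) and Fabp5 higher in 6 of 6 (0.26 ± 0.07, adjusted p = 0.0180). Lpl was also lower with LNA2 in 6 of 6 pairs but did not pass (-0.13 ± 0.07, adjusted p = 0.232). The Cd36 call was lost when any of 12 single libraries was left out (adjusted p up to 0.140) and the Fabp5 call when either of 2 was (adjusted p up to 0.0585). The Cd36 call was also lost without replicate 2, 3 or 4 (adjusted p = 0.185, 0.0515 and 0.164), and the Fabp5 call without replicate 3 (adjusted p = 0.0574) or 4 (adjusted p = 0.129) but not without replicate 2 (adjusted p = 0.0461). Without the stimulated LNA2 library of replicate 3 both values were smaller, -0.14 for Cd36 (adjusted p = 0.0324) and 0.17 for Fabp5 (adjusted p = 0.00518). In the same fit 4 of 8 adipocyte markers (Adipoq, Plin1, Pparg and Retn, 3 higher and 1 lower with LNA2) and 3 of 5 tested preadipocyte markers (Col1a1, Col3a1 and Ly6a, 2 higher and 1 lower) were called, and Cd68, Csf1r and Des were higher, and their part was not tested.

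**Figure D4:**
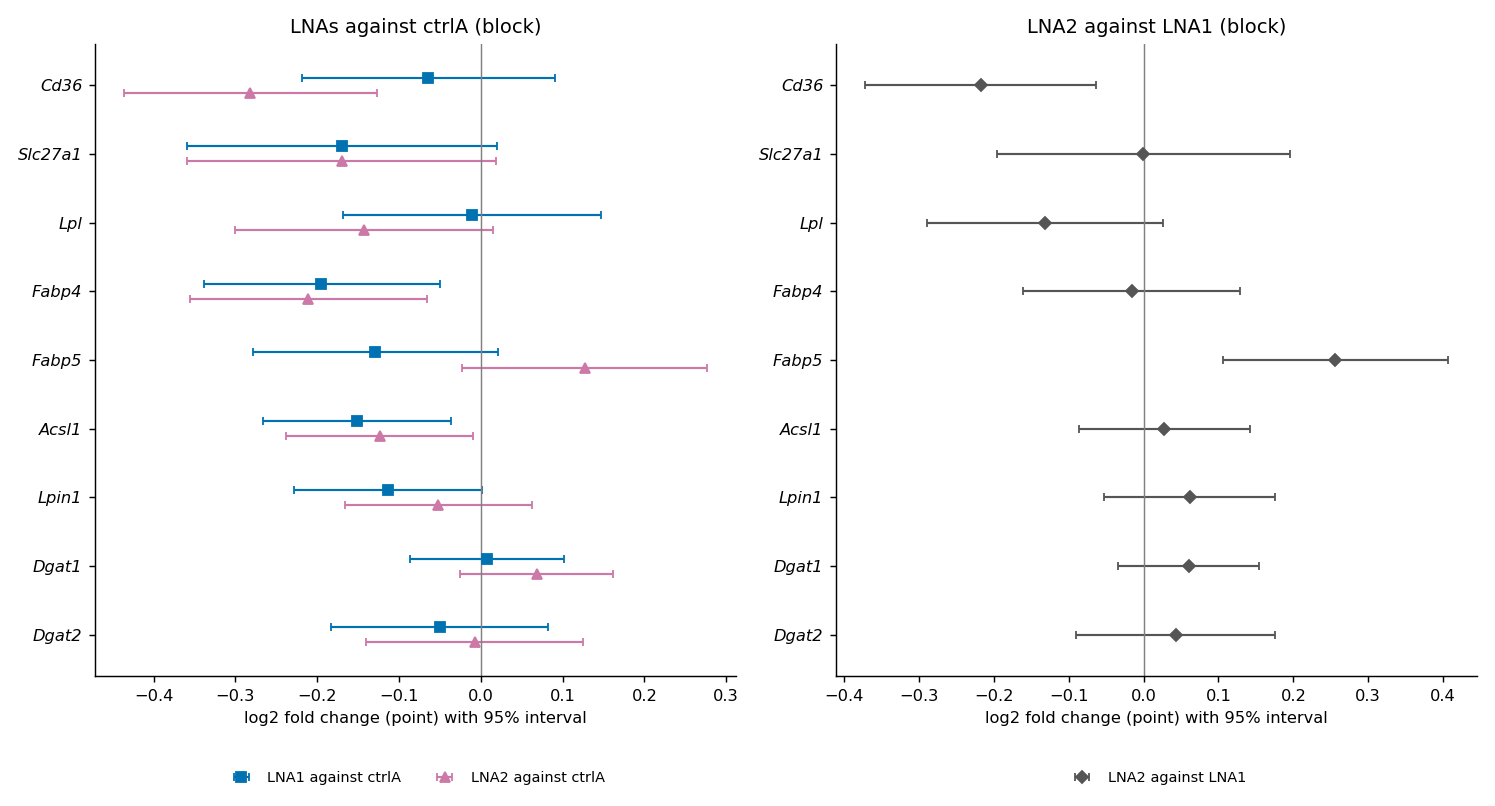
Log2 fold change of the 9 tested genes (points) with 95% intervals (bars) from the fit with the replicate number, for LNA1 (squares) and LNA2 (triangles) against ctrlA on the left and for LNA2 against LNA1 on the right. All values lie between -0.28 and 0.26, and Cd36 is lower with LNA2 than with ctrlA and than with LNA1.

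A joint test over the 6 groups called 0 of 9 without the block, beside 2.94% of all genes, with 0 at an unadjusted p below 0.05 and 0 by DESeq2. The block gave 6, the genes that fell with isoproterenol, beside 32% of all genes.

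The 9 genes did not vary as one. After the mean of each replicate number was taken off, log2 CPM of Acsl1 followed Lpin1 (r = 0.911) and Fabp4 (r = 0.909), and Cd36 followed Acsl1 (r = 0.857), over the same 18 libraries. Fabp5 followed Lpin1 (r = 0.839) more closely than Cd36 (r = 0.389). Lpl and Dgat1 ran in opposite directions (r = -0.753), and Dgat1 and Dgat2 in the same (r = 0.574). The stimulated LNA2 library of replicate 3 had the highest Dgat1 and Dgat2 of the 18 (654 and 383 CPM). It also had the lowest Cd36 of the 18 (852 CPM) and the lowest Lpl of replicate 3 (3403 CPM). How far these r rest on that library was not tested. These values describe libraries that share stimulation and depth and carry no test.

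Of all other genes tested, those whose log2 CPM, taken in the same way over the 18 libraries, was most like that of Cd36 were Rps6ka3 (r = 0.984) and Nampt (r = 0.982). Fabp4 was most like Cav1 (r = 0.965), which codes for the caveolar coat protein caveolin 1, and Plgrkt (r = 0.955). For Fabp5 they were Mvd (r = 0.970), an enzyme of cholesterol synthesis, and Trim35 (r = 0.969), and for Acsl1 the desaturase gene Scd2 and Hsd17b12, an enzyme of fatty acid elongation (r = 0.975 each). Lpin1 was closest to the diacylglycerol kinase gene Dgkd (r = 0.955) and to Svep1 (r = 0.954), and Slc27a1 to Arsb (r = 0.918) and Pwwp3a (r = 0.914).

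Of 42 further genes of uptake, activation, glycerol supply and acylation, 28 passed the filter. With isoproterenol and no block 6 of these 28 were called, all higher, beside 4.58% of all genes called in either direction: Acsbg1, Pck1, Lipg, Gk, Lpin3 and Agpat4. Acsbg1, an acyl-CoA synthetase known from brain, was at 14.0 ± 4.10 CPM in the 9 unstimulated libraries and rose to 38.1 ± 5.28 CPM (mean ± SD) in the 9 stimulated ones, by 1.48 ± 0.09 on the log2 scale (adjusted p = 1.29e-07). Pck1, which makes the glycerol backbone from pyruvate in fat cells, rose from 49.0 ± 17.9 to 120.1 ± 43.0 CPM (1.29 ± 0.25, adjusted p = 0.00683), and the glycerol kinase gene Gk from 225 ± 31.4 to 334 ± 75.4 CPM (0.56 ± 0.13, adjusted p = 0.0212). The endothelial lipase gene Lipg rose by 0.71 ± 0.14 (adjusted p = 0.00590), the lipin gene Lpin3 by 0.50 ± 0.10 (adjusted p = 0.00651) and the acyltransferase gene Agpat4 by 0.36 ± 0.09 (adjusted p = 0.0339) on the log2 scale. Acsbg1, Lipg, Pck1, Lpin3 and Agpat4 were higher in 9 of 9 matched pairs and Gk in 8 of 9.

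With the block 16 of the 28 were called with isoproterenol, 7 higher and 9 lower, beside 26.4% of all genes. The lower ones with the largest changes were the glycerol channel gene Aqp7 (-0.55 ± 0.04) and Cav1 (-0.55 ± 0.05). Every step but one held both directions. Glycerol supply gave 2 higher (Pck1 and Gk) and 2 lower of its 4 tested genes, acyl-CoA formation 2 higher and 2 lower of 5, acylation and droplet formation 2 higher and 2 lower of 11, and uptake 1 higher (Lipg) and 1 lower (Cav1) of 5. Of the 3 tested genes that handle Lpl, 2 were called, both lower.

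**Figure D5:**
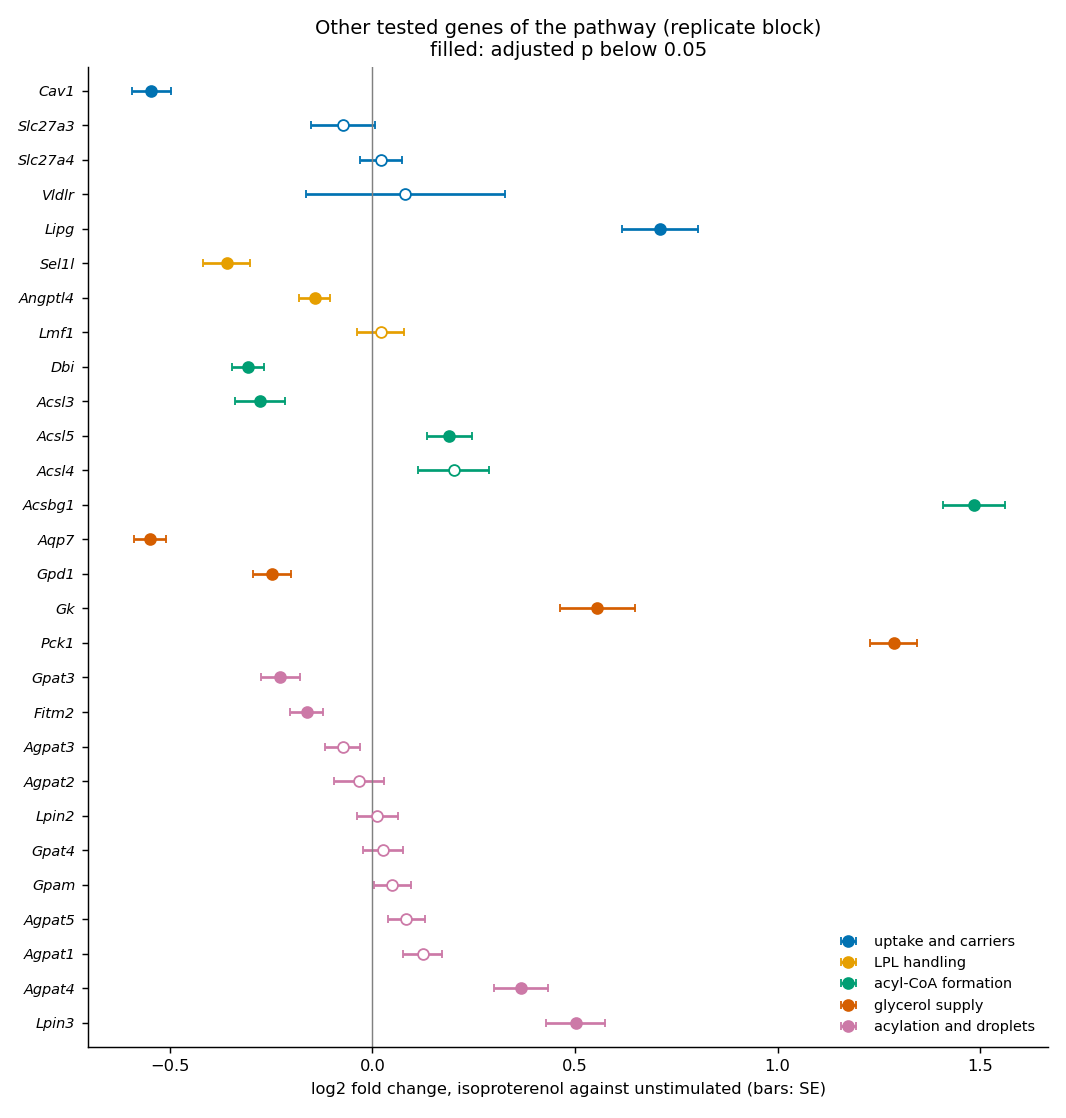
Log2 fold change with isoproterenol of the 28 other tested genes of the pathway from the fit with the replicate number, with standard errors as bars, grouped by step and ordered within each step. Filled points have an adjusted p below 0.05, and Acsbg1 (1.49) and Pck1 (1.29) lie farthest to the right.

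Without the block edgeR called 0 of the 28 with LNA1, with 0 at an unadjusted p below 0.05 and 0 by DESeq2. With LNA2 it called 0, beside 1.59% of all genes. At an unadjusted p below 0.05 there were 4, beside 1587 of 14949 genes, and DESeq2 without the block called 2, beside 523. Between the LNAs edgeR called Acsbg1 alone, higher with LNA2 (0.52 ± 0.11, adjusted p = 0.0377), beside 0.97% of all genes. With the block LNA1 gave 5 calls among the 28, beside 7.8% of all genes, with Pck1 (-0.33), Agpat3 (-0.24) and Cav1 (-0.23) lower and Slc27a3 (0.41) and Aqp7 (0.21) higher. LNA2 gave 10, beside 20.6% of all genes, of which Lipg (-0.49), Pck1 (-0.37), Gk (-0.37), Sel1l (-0.34) and Cav1 (-0.30) were the lower ones with the largest changes, and Agpat4 (0.45), Acsbg1 (0.44) and Lpin2 (0.22) were higher. Between LNA2 and LNA1 there were 6, beside 15.4% of all genes, of which Acsbg1 (0.52), Agpat2 (0.34) and Lpin2 (0.21) were higher with LNA2 and Lipg (-0.44), Slc27a3 (-0.37) and Sel1l (-0.23) lower.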

How the data were processed

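Polyadenylated RNA of 18 libraries, 3 for each LNA and stimulation, was made into NEBNext Ultra II libraries and read from both ends. The authors trimmed reads with cutadapt and estimated counts with salmon against the Gencode M22 transcripts of GRCm38, and deposited the estimated counts as whole numbers per gene. Versions and the strand setting were not given in the sources used here. Samples were grouped by their labels. The 10 genes and all gene lists were chosen with earlier results of these data known.

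Counts were tested with edgeR 4.0.16 in R 4.3.3 (TMM, filterByExpr with a minimum count of 10 and a total of 15, quasi-likelihood F test, 1 term for each of 6 groups, Benjamini-Hochberg over 14949 genes). A gene was called at an adjusted p below 0.05. The 95% intervals use the standard error with 12 residual degrees of freedom, or 10 with the block. Totals ran from 9167560 to 19723021 counts, and the floor of 3 counts covers counting error only. No pair among the 18 pairs of libraries of one group was identical.

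The model as planned had no block. Deviations from the group means correlated between libraries of the same replicate number in 45 of 45 pairs (r = 0.24 to 0.722, each over 0.1). Between other numbers r ran from -0.596 to 0.404, so the ranges overlapped. The group means included replicate 2, which stood apart in every group. Libraries of replicates 3 and 4 could therefore lean to the same side of these means whether paired or not. The limit of 0.1 thus cannot show that the numbers 3 and 4 pair libraries. Since every same-number pair was over 0.1, pairing was assumed for all numbers and blocked values are printed on that assumption. Alternatives were DESeq2 1.42.0, RLE scaling, no filter, removal of mitochondrial and rRNA genes, a log2 fold limit of 0.5, and leaving out each library or replicate number. The same set run on the blocked fit, the principal transcript length and the LNA complementarity were chosen after seeing the data. The code was tested on simulated data with 200 changed genes.

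All members are described. An item of the planned pathway list is not reported here. Of the other pathway genes, those called were to be named, up to 8 with the largest change per comparison. The genes of most similar pattern were to be given for members called without the block. As there were none, this was done for those called with isoproterenol with the block.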

Additional observations from a re-analysis of the deposited data

How the results depend on the processing

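With the replicate block in the model the number of the 9 genes called was 6 for isoproterenol, 5, 6 and 3 for isoproterenol within ctrlA, LNA1 and LNA2 cells, 2 for LNA2, 2 for LNA2 against LNA1 and 6 in the joint test, against 0 in each without it, and the block changed no other call of the 9 genes. For the 28 other pathway genes it gave 16, 5, 10 and 6 for isoproterenol, LNA1, LNA2 and LNA2 against LNA1. With the block and a log2 fold limit of 0.5 the counts were 1 for isoproterenol (beside 7.0% of all genes), 2, 3 and 1 within ctrlA, LNA1 and LNA2 cells (4.03, 5.04 and 4.25%), and 0 for LNA2 (5.53%) and for LNA2 against LNA1 (4.11%). With the block DESeq2 called 2 for LNA1, 3 for LNA2 and 4 within LNA2 cells, beside 1293, 3134 and 1659 of all genes. There edgeR called 0, 2 and 3, and elsewhere DESeq2 called as many as edgeR. For LNA1 the block gave 2 with no filter, and for LNA2 against LNA1 it gave 1 without mitochondrial and rRNA genes. The share of all genes called is not given for these 2 settings, so their counts cannot be set beside it. The 6 isoproterenol calls of the blocked fit held in 25 of 25 alternatives at an adjusted p below 0.05, with the highest adjusted p from 4.31e-04 (Acsl1) to 0.0150 (Lpin1).

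Leaving out libraries or replicate numbers gave counts without the block of 0 to 6 for isoproterenol, 0 to 2 within LNA1 cells, 0 to 1 within LNA2 cells and 0 to 5 in the joint test. The 6 for isoproterenol came without replicate 2, beside 10.9% of all genes. With the block the counts were 0 to 6 within ctrlA cells, 2 to 6 within LNA1 cells, 0 to 3 for LNA1, 0 to 3 for LNA2 and 0 to 3 for LNA2 against LNA1. Without replicate 4 the blocked counts were 0 within ctrlA cells, 2 within LNA1 cells, 0 for LNA2 and 0 for LNA2 against LNA1. These stand beside 2.92, 4.51, 6.88 and 3.47% of all genes. Apart from the 6 for isoproterenol, the ranges above carry no such share. They show only how far the calls moved with the libraries used.

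In the comparisons averaged over LNAs or stimulation, signs turned for values between -0.1473 (Slc27a1 with LNA1, no block) and 0.0702 (Dgat1 with LNA2, no block), none of them called. In these leave-outs the log2 change with isoproterenol ran from -0.1033 to 0.0748 for Lpl (block -0.1009 to 0.0696), from -0.0343 to 0.0747 for Dgat1 (block -0.0141 to 0.0314) and from -0.0783 to 0.0891 for Dgat2 (block -0.0924 to 0.0438). With LNA1 it ran from -0.157 to 0.0448 for Cd36, -0.2724 to 0.0196 for Fabp5, -0.0668 to 0.032 for Lpl (block -0.043 to 0.0265), -0.338 to 0.0418 for Slc27a1, -0.0583 to 0.0991 for Dgat1 (block -0.0088 to 0.037) and -0.1758 to 0.0676 for Dgat2. With LNA2 it ran from -0.0146 to 0.1641 for Dgat1, -0.1497 to 0.0995 for Dgat2 (block -0.0494 to 0.0361) and -0.1742 to 0.0637 for Lpin1. For LNA2 against LNA1 it ran from -0.1802 to 0.1769 for Fabp4 (block -0.0872 to 0.0688), -0.2416 to 0.1452 for Slc27a1 (block -0.1017 to 0.0749), -0.0701 to 0.1335 for Acsl1, -0.0212 to 0.1443 for Dgat1, -0.0863 to 0.1478 for Dgat2 and -0.0325 to 0.187 for Lpin1. Other reversals were Dgat2 with isoproterenol and the block (-0.017), Dgat1 with LNA1 and no filter (-0.0233, block -0.0253), Dgat2 with LNA2, the block and no mitochondrial or rRNA genes (0.003), and for LNA2 against LNA1 with the block Fabp4 with no filter (0.0017) and Slc27a1 with no filter (0.0176) or without mitochondrial and rRNA genes (0.0114). The cause was not tested.

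Fabp3 had too few counts to be tested, and Gm15551 lay near the floor. With the block, the calls on Fabp4 with LNA2, on Cd36 and Fabp5 between LNA2 and LNA1, on Lpin1 in ctrlA cells and on Cd36, Fabp4 and Lpin1 in LNA1 cells were lost without 1 or another single library, while the other calls on the LNAs and within an LNA held in each of these 18 leave-outs. All calls of the 9 genes needed either the block or the removal of libraries. The blocked calls assume that the replicate numbers pair the libraries, which was not shown for the numbers 3 and 4.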
